A study of Mus musculus with 11 samples.

Results

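Pericytes and mesoangioblasts are cells of the vessel wall, and the 10 genes described here are surface or signalling genes by which such cells are commonly recognised: Pdgfrb, Pdgfra, Cspg4, Alpl, Anpep, Angpt1, Mcam, Cd248, Rgs5 and Gjc1. Members were the probes whose gene name, older synonym or accession on the array was that of 1 of these genes. They came to 18 probes for 10 genes, of 41121 probes and 27561 gene names in all. The samples were cardiac progenitor cells (mesoangioblasts, per the series text) from atrium, ventricle and aorta of beta-sarcoglycan null mice (KO, 5 arrays) and of wild-type mice (WT, 3 arrays). C2C12, a mouse myoblast line that fuses into muscle fibres in culture, was the positive control for muscle differentiation (3 arrays). The labels give no age, strain, passage or culture stage, and do not say whether mice were pooled or how many animals or cultures the arrays stand for. Spread here is that between the arrays at hand, some of it possibly technical, and the p-values cover no more than that.

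Pericytes wrap the endothelial tube of small vessels and respond to PDGF-B released by endothelium through the receptor PDGFR-beta, while the angiopoietin-1 that they release acts on the endothelial receptor Tie2. Mesoangioblasts are progenitors grown out of vessel explants. They have been described with pericyte markers such as alkaline phosphatase and NG2, and can enter skeletal, smooth or cardiac muscle lineages. PDGFR-alpha marks fibroblasts and other interstitial mesenchymal cells of the heart more than pericytes.

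Each value is log2 of the processed spot signal minus the 75th percentile of its array, so 0 is the 75th percentile. Levels of different probes are not comparable. Arrays of 1 group and region that differed by less than the noise between repeated spots were averaged, which left 3 KO-labelled samples, 3 WT-labelled samples (1 of each region) and 2 C2C12 samples. The adjusted p of each probe comes from limma over all tested probes with Benjamini-Hochberg adjustment, and a probe was called at an adjusted p under 0.05. No slide held both KO and WT arrays, so genotype and slide cannot be told apart directly. C2C12 was on each of 3 slides, beside KO ventricle and aorta on slide 1, all WT arrays on slide 2 and all KO regions on slide 3. Slide-blocked values set each genotype against the C2C12 sample in its block. The C2C12 array of slide 2 is a different sample from the one averaged over slides 1 and 3. Slide and C2C12 culture therefore cannot be told apart in the slide-blocked values. They are given where the block ended a call. For members the first value has each slide as its own block and the second has slides 1 and 3 as 1 block, since 3 averaged pairs lay on both. In the first form each averaged pair counted with slide 1. KO atrium was then alone in its block and did not enter the difference. For other genes the second form is given, which was chosen after seeing the data.

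Depending on the array, 49 to 62% of its probes exceeded background. The brightest probe of Sgcb, which encodes beta-sarcoglycan, was not lower in KO (range 2.34 to 2.99 in KO and 1.82 to 2.20 in WT, KO minus WT 0.63, adjusted p = 0.0727). Because this goes against the label unless the probe lies outside the deleted part, which the labels do not give, KO and WT here mean KO-labelled and WT-labelled. Of 8 endothelial markers, Pecam1, Cdh5, Kdr, Tie1 and Emcn were above background on no array, and Erg was above it on all 3 WT arrays and on no other array. Their summed signal, in multiples of the 75th percentile, was 0.0617 to 0.0877 in KO and 0.135 to 0.265 in WT. The sum of 7 myoblast markers was 46.4 to 149 in the KO-labelled samples, 0.113 to 0.162 in the WT-labelled samples and 70.5 to 152 in C2C12. None of those 7 was above background on most WT arrays. The 7 macrophage and blood markers summed to 0.165 to 0.234 in the KO-labelled samples, 1.21 to 2.35 in the WT-labelled samples and 0.216 to 0.24 in C2C12, with Ptprc, Adgre1 and C1qa above background on no array. Most of that WT sum was Lyz2 (-0.03 to 1.00 in WT, above background on no KO array), while Cd68 was above background on 5 KO arrays and 1 WT array. Epicardial and mesothelial markers summed to 2.1 to 6.73 in the KO-labelled samples and 9.05 to 99.1 in the WT-labelled samples. Most of this sum was Msln (1.02 to 2.73 in KO, 3.08 to 6.56 in WT). Bnc1 was above background on the 3 WT arrays and no KO array, and Krt19 on 3 KO arrays and no WT array. Fibroblast markers summed to 137 to 148 in KO and 58 to 97.3 in WT, cardiomyocyte markers to 19.1 to 40.6 in KO and 2.46 to 6.45 in WT, and smooth muscle markers to 141 to 285 in KO and 30.3 to 163 in WT. Each sum is on the linear scale, so its brightest genes weigh most. The cardiomyocyte sum was mostly Tnnt2 (4.24 to 5.33 in KO, 1.18 to 2.63 in WT, 5.61 and 4.50 in C2C12). Nppa went the other way, and 2 cardiomyocyte markers were above background on most KO arrays against 3 on most WT arrays. Dcn went against the fibroblast sum (-2.92 to 0.19 in KO, 0.63 to 4.15 in WT). In cultures measured in bulk, fewer cells of a type and less RNA per cell cannot be told apart, and the part of these marker differences in the results below was not tested.

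KO-labelled cells read higher than WT-labelled cells for Pdgfrb, Anpep and Angpt1 and lower for Pdgfra and Cd248. In the KO-labelled cells Anpep, Angpt1, Cspg4 and Gjc1 lay close to C2C12. For Cspg4 and Gjc1, WT was not called against C2C12 either (probe 1 -0.49, adjusted p = 0.144, and 0.78, adjusted p = 0.151, by limma). Alpl and Rgs5, a pair of genes often used to recognise mesoangioblasts and pericytes, were not detected above background in either kind of heart cell. Of the 18 member probes, 15 passed the filter on low signal (well above background on at least 3 fitted arrays) and stood for 8 genes. Against WT, 4 of these 15 probes were called higher in KO, beside 13.3% of all 22672 tested probes, and 5 were called lower, beside 15.8% of all tested probes. Among the 9 called probes, Pdgfra probe 2 passed the filter through the WT arrays alone, and Anpep and Angpt1 probe 2 had 1 WT array above background and passed through the KO arrays, so the counts lean on probes that had to differ. The median size of the difference, without sign, was 1.3 over the tested member probes and 0.44 over all tested probes. The same probes enter this median, and probes of 1 gene count in it separately, so it leans on them too.

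**Figure D1:**
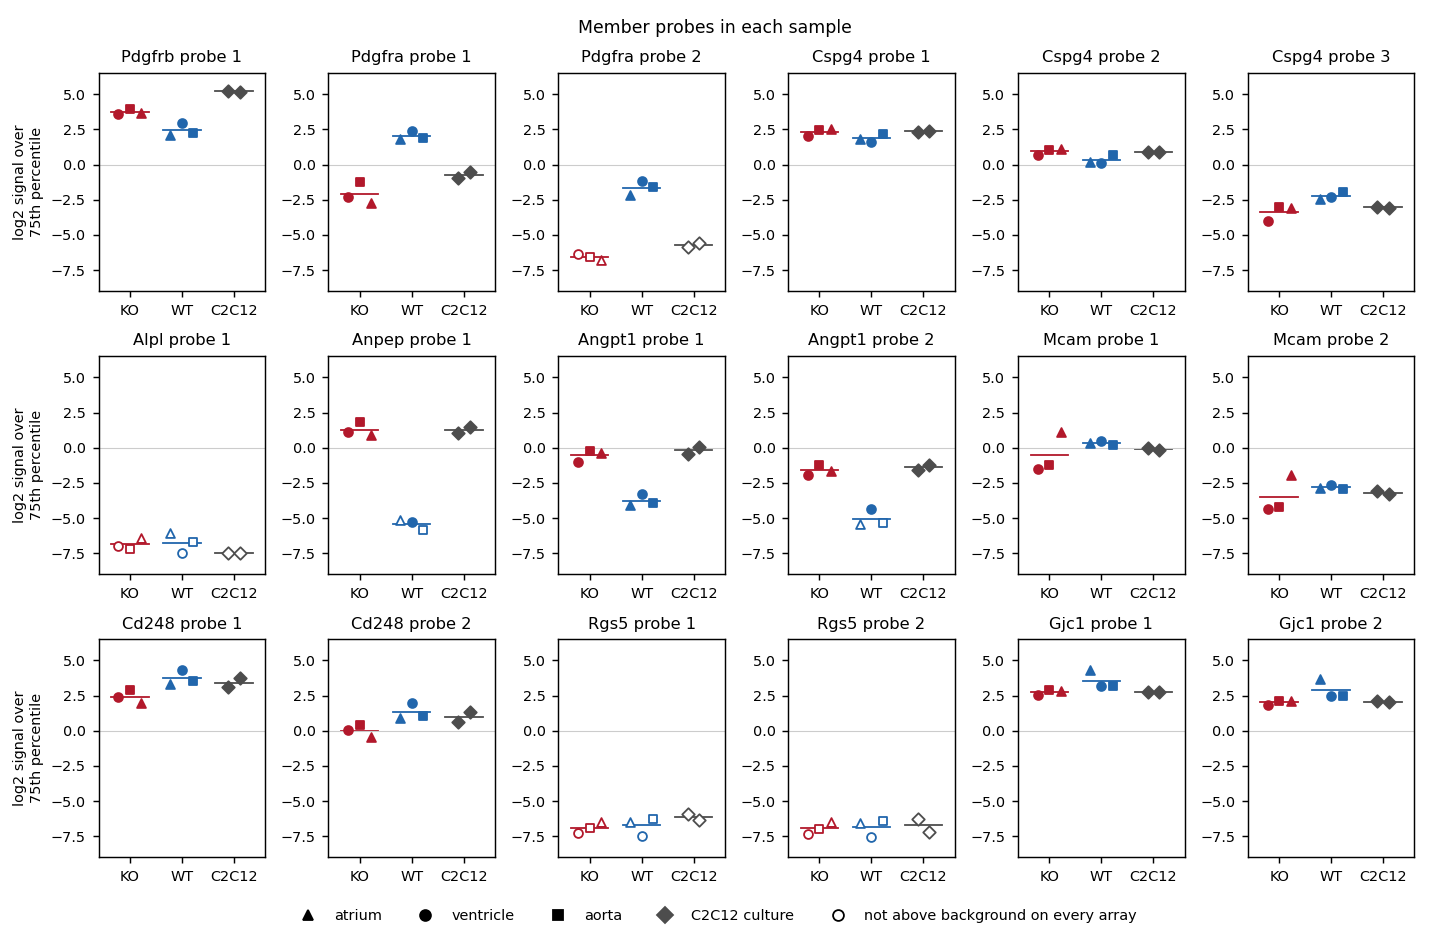
Log2 signal over the array's 75th percentile (vertical axis) of the 18 member probes in the KO-labelled, WT-labelled and C2C12 samples, where points are samples, lines are group means and open points were not above background on every array. Pdgfra probe 1 reads -2.70 to -1.20 in KO and 1.82 to 2.42 in WT, and Anpep reads 0.92 to 1.82 in KO and -5.87 to -5.14 in WT.

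Pdgfrb encodes PDGFR-beta, the receptor through which pericytes are recruited to vessels, and had 1 probe (mm8 chromosome 18, 61210310 to 61210369, plus strand). It read 3.63 in ventricle, 3.98 in aorta and 3.64 in atrium of KO, against 2.94 in ventricle, 2.25 in aorta and 2.14 in atrium of WT, and 5.25 and 5.17 in C2C12. The 3 groups did not overlap, and in both genotypes Pdgfrb was lower than in C2C12 in every sample. The KO mean was 3.75 ± 0.20 and the WT mean 2.44 ± 0.44 (SD, n = 3 each), a difference of 1.30 (95% interval 0.69 to 1.92, 2.47-fold, adjusted p = 0.0122). That call ended without WT aorta (1.21, adjusted p = 0.0509). Blocking on slides, which rests on a single C2C12 sample per block, also ended it (1.28, adjusted p = 0.38, then 1.22, adjusted p = 0.26). WT minus C2C12 was -2.77 (adjusted p = 0.000389). KO minus C2C12 was -1.46 (95% interval -2.08 to -0.85), which was not called (adjusted p = 0.0622) but was called without WT atrium (adjusted p = 0.0369) or without WT ventricle (adjusted p = 0.0238), because the spread is estimated over all groups.

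Pdgfra, which encodes PDGFR-alpha, had a probe on chromosome 5 at 75479560 to 75479619 (probe 1) and another 34.3 kb upstream at 75445285 to 75445344 (probe 2). Probe 1 read -2.28 in ventricle, -1.20 in aorta and -2.70 in atrium of KO, against 2.42 in ventricle, 1.91 in aorta and 1.82 in atrium of WT, and -0.97 and -0.54 in C2C12. Every KO value lay below every C2C12 value, and every WT value above them. The KO mean was -2.06 ± 0.77 and the WT mean 2.05 ± 0.33 (SD, n = 3 each), so KO was lower (difference -4.11, 95% interval -5.09 to -3.12, adjusted p = 0.000957). Blocking on slides ended this call (-3.36, adjusted p = 0.0977, then -3.68, adjusted p = 0.0616). Probe 2 was above background on no KO array, on 1 of 3 C2C12 arrays and on all 3 WT arrays. It was at least 9.97-fold lower in KO than in WT (means -6.54 and -1.64, adjusted p = 0.00012). It passed the filter on low signal through the WT arrays alone. WT exceeded C2C12 by 2.80 at probe 1 (adjusted p = 0.00361), and was also higher at probe 2 (-2.16 to -1.14 in WT, against -5.88 and -5.59 in C2C12, adjusted p = 0.000119, 1 of 3 C2C12 arrays above background). KO and C2C12 differed by -1.30 at probe 1 (95% interval -2.32 to -0.29, adjusted p = 0.286), which missed the threshold.

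Thus the PDGF receptors differed in opposite directions between the same samples. Their ligands were read from a list of 4 genes, all tested. Pdgfd, which signals through PDGFR-beta, was at least 24.8-fold higher in KO (adjusted p = 0.00015), and Pdgfb, the ligand released by endothelium, reached at least 12.2 times the WT level (adjusted p = 0.0012). Neither was above background on any WT array. Pdgfa, a PDGFR-alpha ligand, differed by 0.06 (adjusted p = 0.917) and Pdgfc by 0.72 (adjusted p = 0.25).

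Among the surface enzymes, Anpep was detected on every KO array and on 1 of 3 WT arrays. It encodes aminopeptidase N (CD13), a membrane peptidase found on pericytes, fibroblasts and myeloid cells (chromosome 7, 79695352 to 79695411). It read 1.09 in ventricle, 1.82 in aorta and 0.92 in atrium of KO, against -5.25 in ventricle, -5.87 in aorta and -5.14 in atrium of WT, and 1.07 and 1.44 in C2C12. All 5 KO arrays and all 3 C2C12 arrays were above background, as was 1 of 3 WT arrays (ventricle), so the WT values mark a level at the edge of detection and the fitted difference of 6.69 is not a size (adjusted p = 5.56e-05). KO and C2C12 overlapped, with a difference of 0.02 (95% interval -0.77 to 0.81, adjusted p = 0.994). WT was below C2C12 (adjusted p = 2.36e-05). Of 6 other cell surface peptidases, 4 were tested, with 1 higher and 1 lower, beside 13.3% and 15.8% of all tested probes. Ece1, the endothelin-converting enzyme, was higher in KO by 1.10 (SE 0.16, adjusted p = 0.00426; slide-blocked 1.04, adjusted p = 0.15). Mme, which encodes neprilysin, read -7.12 to -5.28 in KO and -3.96 to -1.86 in WT (adjusted p = 0.0234; slide-blocked adjusted p = 0.367), with 1 of 5 KO arrays above background.

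Alpl encodes tissue-nonspecific alkaline phosphatase, whose activity has been used to isolate pericyte-derived muscle progenitors, and the array names it Akp2 (chromosome 4, 137013819 to 137013878). Its values were -7.23 to -6.39 in KO, -7.47 to -6.08 in WT and -7.49 to -7.48 in C2C12, none of them well above background on any array, so it was not tested. The detection floor, taken as the dimmest probe that passed the background test, was -6.41 to -4.45 depending on the array. At this signal Alpl RNA was not detectable, which does not show that it is absent. Of 3 other alkaline phosphatase genes, Alpi (-0.32, adjusted p = 0.31) and Alppl2 (0.14, adjusted p = 0.647) were tested and not called.

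Angpt1 encodes angiopoietin-1, the Tie2 ligand made by mural cells. Its probes lie 69.3 kb apart on chromosome 15 (probe 1 at 42257097 to 42257156, probe 2 at 42326424 to 42326483). Probe 1 read -1.02 in ventricle, -0.24 in aorta and -0.40 in atrium of KO, against -3.28 in ventricle, -3.96 in aorta and -4.04 in atrium of WT, and -0.43 and 0.08 in C2C12. KO and C2C12 overlapped, and both lay above all WT samples. The KO mean was -0.56 ± 0.41 and the WT mean -3.76 ± 0.42 (SD, n = 3 each), a difference of 3.20 (95% interval 2.49 to 3.92, 9.22-fold, adjusted p = 0.000741). Probe 2 gave -1.95 to -1.22 in KO and -5.46 to -4.35 in WT (adjusted p = 0.00109), with 1 of 3 WT arrays above background. The call ended when each slide was a block (3.63, adjusted p = 0.067, and 3.85, adjusted p = 0.0902, for probes 1 and 2) and held with slides 1 and 3 as 1 block (3.71, adjusted p = 0.0233, and 3.82, adjusted p = 0.036). KO and C2C12 differed by -0.38 at probe 1 (95% interval -1.16 to 0.39). WT was lower than C2C12 at probe 1 (difference -3.59, adjusted p = 0.00033) and at probe 2 (adjusted p = 0.00057). Of the other angiopoietin axis genes (Angpt2, Angpt4, Tek and Tie1), Angpt2, a context-dependent Tie2 antagonist, was the 1 that could be tested. It did not pass the test, with a difference of 0.00 (SE 0.56, adjusted p = 0.997).

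**Figure D2:**
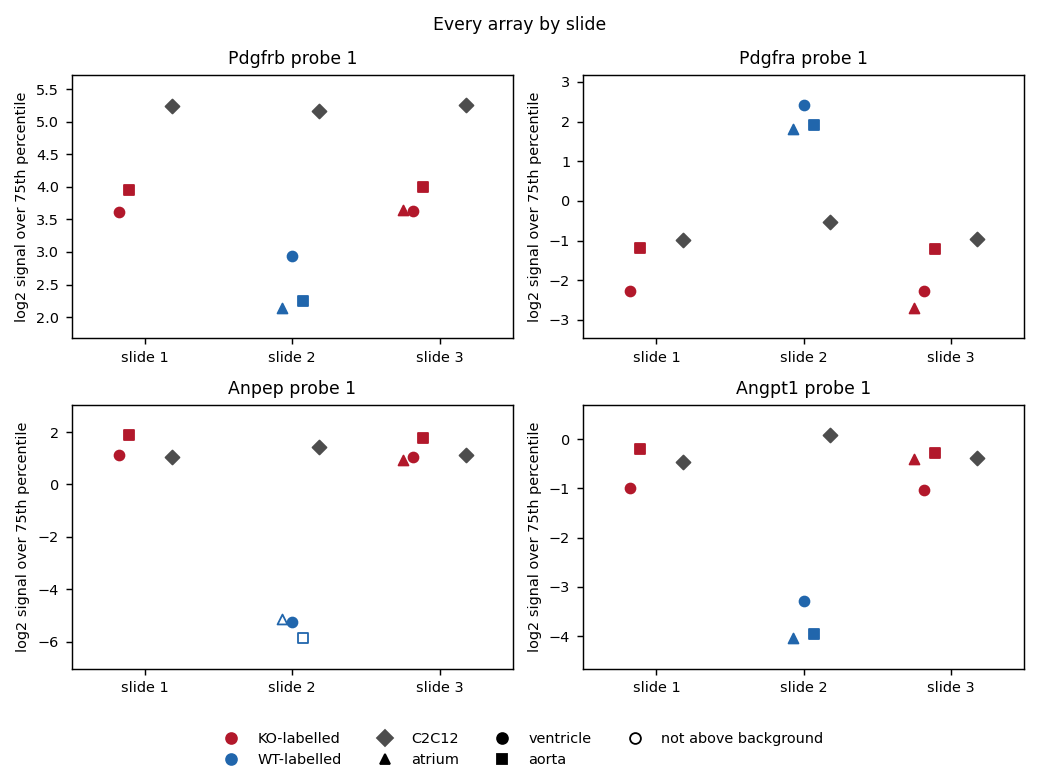
Log2 signal over the 75th percentile (vertical axis) of Pdgfrb, Pdgfra, Anpep and Angpt1 on every array, by slide (horizontal axis), with KO-labelled, WT-labelled and C2C12 arrays side by side and open points not above background. The C2C12 array reads 5.24, 5.17 and 5.26 for Pdgfrb on slides 1, 2 and 3.

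Differences from the C2C12 array of the same slide, shown in the plot of every array by slide, are values without a test. For Pdgfrb, KO differed from C2C12 by -1.45 on slide 1 and by -1.5 on slide 3, while WT on slide 2 differed by -2.73 from its C2C12 array. Pdgfra probe 1 differed from C2C12 by -0.76 and -1.10 in KO on slides 1 and 3, and by 2.59 in WT on slide 2. Angpt1 probe 1 differed by -0.13 and -0.19 in KO and by -3.84 in WT. Anpep differed by 0.46 and 0.14 in KO, while on slide 2 the WT arrays averaged -5.42, with 1 of 3 above background, against 1.44 in C2C12.

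The upstream 250 bases of Anpep and Pdgfra are shown as those of a member called higher and a member called lower in KO. Both were read from RefSeq windows (GRCm38.p6), 5′ to 3′ on the strand of the gene. Anpep lies on the minus strand (chr7:79848211-79848460) and Pdgfra on the plus strand (chr5:75152001-75152250). Capitals mark CAGCTG, an E-box of the kind bound by myogenic bHLH factors, and GGGCGG, the GC box, searched on both strands.
Anpep: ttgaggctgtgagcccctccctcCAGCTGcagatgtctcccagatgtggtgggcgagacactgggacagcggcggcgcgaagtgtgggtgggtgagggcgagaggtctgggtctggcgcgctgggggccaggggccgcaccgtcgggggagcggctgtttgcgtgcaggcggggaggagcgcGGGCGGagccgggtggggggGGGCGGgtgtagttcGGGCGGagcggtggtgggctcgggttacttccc
Pdgfra: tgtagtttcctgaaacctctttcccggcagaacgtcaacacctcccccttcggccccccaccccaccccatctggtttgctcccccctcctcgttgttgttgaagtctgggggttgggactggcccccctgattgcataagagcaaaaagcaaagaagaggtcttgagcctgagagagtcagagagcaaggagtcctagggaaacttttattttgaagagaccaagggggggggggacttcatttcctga

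The Anpep window held CAGCTG once, at -227, and GGGCGG 3 times, at -68, -48 and -33, counted from the annotated start, and the Pdgfra window held neither. CAGCTG occurred in 13% of 32851 windows of this length and GGGCGG in 32.7%. Of the members, 6 genes had a listed window, of which 2 held CAGCTG (Anpep and Alpl) and 4 held GGGCGG. These are matches of letters in a window, with no binding measured here.

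Cspg4 encodes NG2, a membrane proteoglycan of pericytes and other progenitors, and its 3 probes lay on chromosome 9. Probe 1 (56697659 to 56697718) read 2.03 in ventricle, 2.45 in aorta and 2.54 in atrium of KO, against 1.63 in ventricle, 2.15 in aorta and 1.84 in atrium of WT, and 2.35 and 2.38 in C2C12. KO and WT overlapped (KO ventricle was below WT aorta), and the difference of 0.46 was not called (95% interval -0.05 to 0.98, adjusted p = 0.154). Probe 2 (56696957 to 56697016) differed by 0.63 (95% interval 0.12 to 1.14, adjusted p = 0.0681), with all KO samples above all WT samples. Probe 3 (56689538 to 56689597), which lies 8.1 kb upstream of probe 1 and was designed to another transcript record, read -4.04, -3.03 and -3.09 in KO ventricle, aorta and atrium, against -2.29, -1.98 and -2.46 in WT ventricle, aorta and atrium, and was lower in KO (difference -1.15, adjusted p = 0.0378). The probes of Cspg4 therefore disagree in direction: over 8 samples probes 1 and 2 correlated at r = 0.975, and probe 3 with them at r = -0.352 and r = -0.486. The probe 3 call was lost without KO aorta (adjusted p = 0.0509), KO atrium (0.0669), WT ventricle (0.0932) or WT aorta (0.118), and with the slide block (-1.32, adjusted p = 0.434; -1.17, adjusted p = 0.386). KO and C2C12 were close at probes 1 and 2 (-0.03, 95% interval -0.55 to 0.49, and 0.07, 95% interval -0.43 to 0.58).

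Cd248 encodes endosialin, a lectin-like membrane protein of stromal cells and of pericytes in growing vessels. Its probes lie 0.2 kb apart on chromosome 19 (probe 1 at 5070558 to 5070617, probe 2 at 5070322 to 5070381) and varied together (r = 0.998 over 8 samples). Probe 1 read 2.43 in ventricle, 2.87 in aorta and 1.94 in atrium of KO, against 4.30 in ventricle, 3.52 in aorta and 3.34 in atrium of WT, and 3.11 and 3.75 in C2C12. KO lay below WT in every sample, while WT and C2C12 overlapped. The KO mean was 2.42 ± 0.47 and the WT mean 3.72 ± 0.51 (SD, n = 3 each), a difference of -1.31 (95% interval -2.14 to -0.47, adjusted p = 0.034), and probe 2 gave -1.30 (adjusted p = 0.0359). The slide block ended this call and reduced the size of the difference at probe 1 (-0.42, adjusted p = 0.838; -0.66, adjusted p = 0.687). C2C12 itself read 3.75 on slide 2, beside the WT arrays, and 3.11 as the mean of slides 1 and 3, beside the KO arrays. Leaving out KO ventricle (-1.31, adjusted p = 0.0887), KO atrium (-1.07, adjusted p = 0.104), WT ventricle (-1.02, adjusted p = 0.0793) or WT aorta (-1.41, adjusted p = 0.0757) also ended the call. Among the lectin-like relatives of Cd248, Thbd (thrombomodulin) was at least 14.4-fold higher in KO (adjusted p = 0.000263), with no WT array above background. Cd93 read -5.27 to -4.94 in KO (1 of 5 arrays above background), -3.34 to -2.83 in WT and -5.04 and -3.32 in C2C12 (adjusted p = 0.000821). With the slide block its difference was -0.27 (adjusted p = 0.776). Clec14a was not tested.

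Mcam encodes CD146, an adhesion molecule of endothelium and pericytes, and differed by region within KO. Probe 1 (chromosome 9, 43893433 to 43893492) read -1.52 in ventricle, -1.20 in aorta and 1.12 in atrium of KO, against 0.49 in ventricle, 0.16 in aorta and 0.35 in atrium of WT, and -0.05 and -0.19 in C2C12. KO atrium lay above all other samples and KO ventricle and aorta below them. Probe 2, 2.1 kb away (43891378 to 43891437), gave the same order, with -4.39, -4.22 and -1.94 in KO ventricle, aorta and atrium, against -2.64, -2.93 and -2.85 in WT ventricle, aorta and atrium. On slide 3, where all 3 KO regions were hybridised, the KO values of probe 1 were 1.12 (atrium), -1.45 (ventricle) and -1.13 (aorta), so the difference between regions was present within 1 slide. Neither probe was called between KO and WT (-0.86, 95% interval -2.52 to 0.79, adjusted p = 0.389 for probe 1; -0.71, adjusted p = 0.455 for probe 2). Without KO atrium both were called lower (-1.69, adjusted p = 0.00675; -1.50, adjusted p = 0.00708), so that sample decides the call.

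Rgs5, a regulator of G protein signalling and a widely used transcript marker of pericytes, was not detected in the heart cells. Its probes on chromosome 1 (probe 1 at 171529565 to 171529624, probe 2 at 171531362 to 171531421) read -7.25 to -6.49 and -7.32 to -6.51 in KO, and -7.46 to -6.27 and -7.58 to -6.42 in WT, on no array above background. Probe 1 was above background on 1 of 3 C2C12 arrays, and neither probe was tested. Of 8 other RGS proteins of the same family, 4 were tested and 2 were called lower in KO, beside 15.8% of all tested probes. Rgs2 was lower in KO (difference -3.26, SE 0.29, adjusted p = 0.000677), and Rgs16 was lower too (difference -1.95, SE 0.52, adjusted p = 0.0356), while none was called higher. The slide block ended the calls of Rgs2 (-2.17, adjusted p = 0.107) and Rgs16 (-3.04, adjusted p = 0.182).

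Gjc1 encodes a gap junction connexin of smooth muscle and of the early and conducting heart. The array lists it under its older name Gja7, with probes on chromosome 11 at 102615829 to 102615888 (probe 1) and 102616015 to 102616074 (probe 2). The array probe that carries the symbol Gjc1 was designed to a transcript that RefSeq now assigns to Gjd3, another connexin. That probe was left out of the members and read -5.66 to -5.13 in KO and -5.61 to -4.89 in WT. Gjc1 probe 1 read 2.57 in ventricle, 2.87 in aorta and 2.86 in atrium of KO, against 3.17 in ventricle, 3.19 in aorta and 4.34 in atrium of WT, and 2.79 and 2.77 in C2C12. KO lay below WT in every sample, and WT atrium was 1.16 above the mean of the other WT regions. The difference from WT was not called at probe 1 (-0.80, 95% interval -1.63 to 0.03, adjusted p = 0.134) or probe 2 (-0.86, 95% interval -1.69 to -0.02, adjusted p = 0.116). KO and C2C12 differed by -0.02 (95% interval -0.85 to 0.82) at probe 1. Of 10 other connexins 5 were tested, and Gja5, a connexin of arterial endothelium and atrium, was lower in KO (difference -1.04, SE 0.19, adjusted p = 0.0105; slide-blocked -1.19, adjusted p = 0.165).

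**Figure D3:**
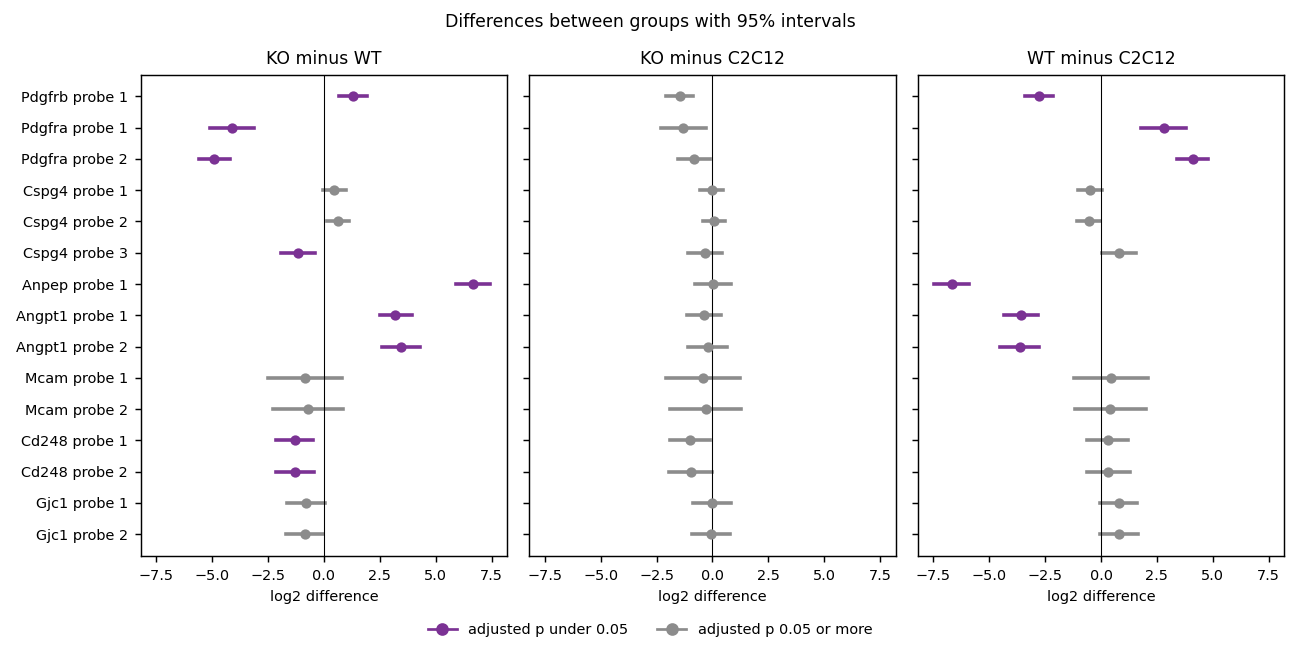
Log2 differences (horizontal axis) of the 15 tested member probes with 95% intervals, for KO minus WT, KO minus C2C12 and WT minus C2C12, with probes at an adjusted p under 0.05 in purple. In the panel of KO minus C2C12 no probe is called, and in the others 9 and 6 are.

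Against C2C12, the KO-labelled cells had no member probe called in either direction, where 0.523% of all 23894 tested probes were called higher and 0.485% lower by limma. At an unadjusted p under 0.05 the member count was 5 of 15 (Pdgfrb, Pdgfra at both probes and Cd248 at both probes, all lower in KO), beside 2892 of all tested probes. The WT-labelled cells had 2 probes called higher than in C2C12 (Pdgfra, beside 13.8% of all tested probes) and 4 called lower (Pdgfrb, Anpep and Angpt1 at both probes, beside 12.7%). KO with C2C12 and WT with C2C12 share the C2C12 samples. The median size of the difference from C2C12, without sign, was 0.35 in KO and 0.8 in WT over the member probes, against 0.22 in KO and 0.45 in WT over all tested probes. Probes of 1 gene count separately in these medians.

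**Figure D4:**
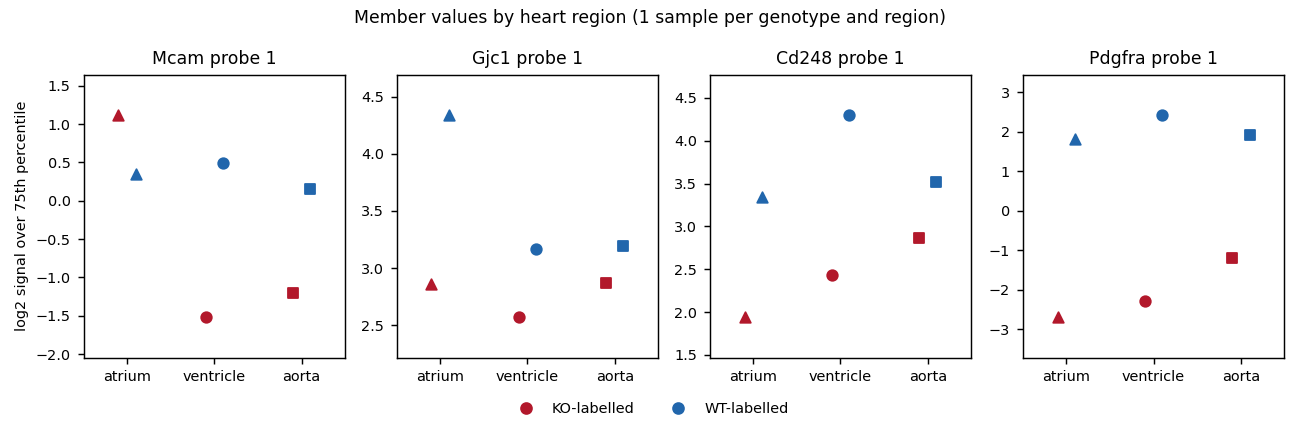
Log2 signal over the 75th percentile (vertical axis, scaled per panel) of probe 1 of Mcam, Gjc1, Cd248 and Pdgfra in atrium, ventricle and aorta, with KO-labelled samples left of WT-labelled ones (1 sample each). Mcam reads 1.12 in KO atrium against 0.35 in WT atrium, and Gjc1 reads 2.86 in KO atrium against 4.34 in WT atrium.

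Regions were compared over both genotypes, since each genotype had 1 sample per region. No member probe was called between atrium and the mean of ventricle and aorta, or between ventricle and aorta, and neither was any other probe (0% of 22672 tested probes by limma in each comparison). At an unadjusted p under 0.05 there were 1 member probe (Pdgfra probe 2, -0.56 in atrium) and 1990 probes in all for atrium, and no member probe and 629 probes in all for ventricle with aorta. KO minus WT was the same sign in all 3 regions for every tested member probe but those of Mcam. The share of all tested probes with the same sign was not counted, and probes of 1 gene varied together for most members. Of all 22672 tested probes, 9363 had an unadjusted p under 0.05 between KO and WT by limma. Pdgfra probe 1 was lower in KO in atrium (-4.51), ventricle (-4.70) and aorta (-3.11), and Cd248 probe 1 likewise (-1.41, -1.87 and -0.64).

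Genes of the wider mural programme were read from a list of 22, of which 21 were on the array and 13 were tested. Against WT, 6 of the 13 were called higher in KO, beside 13.3% of all tested probes, and 3 were called lower, a share near the 15.8% of all tested probes. The median difference was 1.16. Des, the muscle intermediate filament desmin, read 3.16 to 4.01 in KO and -5.98 to -4.89 in WT (adjusted p = 3.81e-05, 1 of 3 WT arrays above background). Nes, the progenitor intermediate filament nestin, was 8.09 higher (SE 0.27, adjusted p = 2.76e-05). The Notch target Heyl reached at least 87.0 times the WT level (adjusted p = 0.000723), and the transcription factor Zic1 was at least 49.3-fold higher (adjusted p = 4.36e-05), both with no WT array above background. In the other direction S1pr3, a sphingosine phosphate receptor, was lower (difference -3.36, adjusted p = 0.00535). Ednra, the endothelin A receptor of smooth muscle, was lower (difference -2.53, adjusted p = 0.0464), and Foxf2, a transcription factor of brain pericytes, likewise (difference -1.14, adjusted p = 0.00255). With the slide block these calls ended (S1pr3 -3.44, adjusted p = 0.139, Ednra -2.55, adjusted p = 0.432, and Foxf2 -1.11, adjusted p = 0.0999). The contractile genes Acta2 (1.83, adjusted p = 0.104) and Tagln (0.78, adjusted p = 0.419) and the pericyte factor Tbx18 (-0.04, adjusted p = 0.954) were not called. Against C2C12, 0 of the 13 were called higher in KO and 1 lower, beside 0.523% and 0.485% of all tested probes. KO minus C2C12 was -0.21 for Des, -0.06 for Nes, 0.70 for Heyl and -0.12 for Zic1. It was -2.25 for S1pr3, -3.08 for Ednra and -0.63 for Foxf2, and none of these was called. Des is also among the myoblast markers above. Over all related lists 35 genes were tested between KO and WT. Of these, 10 were called higher and 8 lower, beside 13.3% and 15.8% of all tested probes. The form with each slide as a block was not read for related genes. With slides 1 and 3 as 1 block, 704 of all 23894 tested probes were called higher and 557 lower. In that fit 7 of the 18 related genes stayed called, namely Pdgfb, Pdgfd, Heyl, Zic1, Des, Nes and Thbd. Of these, all but Des and Nes were above background on no WT array. Between KO and WT they, like Des with 1 WT array, passed the filter on low signal through the KO arrays. The counts called higher therefore lean on genes that had to differ, and their staying called is no independent support.

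**Figure D5:**
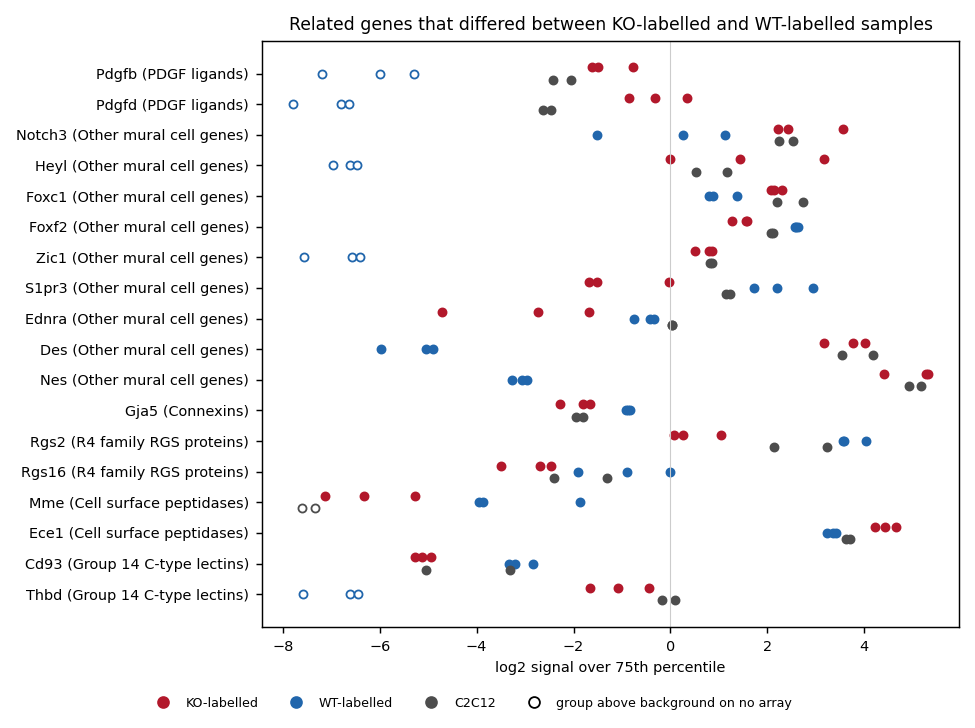
Log2 signal over the 75th percentile (horizontal axis) of the 18 related genes that differed between KO-labelled and WT-labelled samples, 1 point per sample, with KO above WT above C2C12 in each row and open points where the group was above background on no array. Des, Nes, Zic1 and Heyl read 0.00 or more in every KO sample and -2.96 or less in every WT sample.

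The genes whose values followed those of a member most closely were found by the smallest root mean square difference between values centred on each gene's mean over the 8 samples, among 13475 genes. These are descriptions over samples that share groups and slides. Where a chromosome is shared it is named, but the share of all 13475 genes on it was not counted and position was not tested. For Pdgfrb they were Plxna4 (0.32), Ampd3 (0.35) and Mrgpre (0.36). For Pdgfra they were Tgfbr3 (0.34), Krt7 (0.42) and Exd1 (0.42), of which Tgfbr3, the TGF-beta co-receptor betaglycan, lies like Pdgfra on chromosome 5. For Anpep they were Pde8a (0.19, on chromosome 7 as Anpep is), Aqp5 (0.25) and Rpl14 (0.35). For Angpt1 they were Prr5 (0.24), Apol10b (0.26) and Mapk14 (0.27), of which Prr5 and Apol10b lie on chromosome 15 as Angpt1 does. Pde8a read -0.06 to 0.34 in KO, against -6.78 to -6.18 in WT and -0.01 to 0.20 in C2C12, a pattern whose centred values differed from those of Anpep by less than for any other gene. The WT values of Pde8a lay below the detection floor of the WT arrays (-5.59 to -4.45), and those of Anpep at the edge of detection. The WT part of this match is therefore between signals too dim to measure. Other nearest genes also read below the floor in part. Krt7 read -7.01 to -6.47 in KO, and Tgfbr3 -6.81 and -6.57 in KO ventricle and atrium (KO floors -5.70 to -4.49). In WT atrium and aorta Prr5 read -6.05 and -6.60, and Plxna4 -5.84 and -5.55 (floors -4.68 and -4.45).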

How the data were processed

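RNA of 11 samples was hybridised to Agilent 1-colour arrays. The deposited values are spot intensity values, and the submitters' processing notes name Agilent Feature Extraction 9.5.3.1 as the software. The deposited series-wide log2 values equalled log2 of the processed signal within 0.01 for 99.7 to 99.8% of probes, so they carry no further scaling (medians 5.44 to 5.77). Of 45018 spots per array, 1639 controls and 39 to 120 outlier spots were left out. Repeated spots were averaged and each array's 75th percentile (960.6 to 1145.5) was subtracted on the log2 scale.

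Over 8553 bright probes, 3 of 16 pairs of arrays of 1 group differed by 0.583 to 0.702 times the spot noise (other pairs 2.545 or more). These were KO ventricle, KO aorta and C2C12, each on slides 1 and 3, and each pair counted as 1 sample. Slide 3 was scanned on the second of 2 days. For member probes the arrays of a pair differed by at most 0.32.

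Symbols were updated by accession for 24469 probes, by symbol for 6226 and by synonym for 2379 (RefSeq, GRCm38.p6), and 8047 kept the name on the array. Positions of probes are on mm8, as the array design gives them, and the exon or UTR they fall in was not analysed here.

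Tests used limma 3.58.1 in R 4.3.3 (lmFit, eBayes). The fit of KO with WT took 6 heart samples, those with C2C12 all 8 samples, and regions were fitted with genotype as a term. "At least" folds set the brighter group's mean against the higher of the dim probe's own signal and the array's lowest signal well above background. The members and gene lists were chosen with earlier results of these data known. Named were every member probe, up to 4 called genes per direction of each related list, and 3 nearest genes for 4 members. Acta2, Tagln and Tbx18 and the uncalled relatives were named after their values were seen. Alternatives were every array as its own sample, normexp with quantile normalisation, median scaling, the deposited values, other filters, 1 probe per gene, region or slide as a block, and leaving out each sample. The number of arrays limits the precision. The KO with WT test was also run on simulated data. Python 3.11.15, numpy 2.4.6, pandas 2.3.3 and matplotlib 3.10.9 were used.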

Additional observations from a re-analysis of the deposited data

Results flagged for a closer look

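Among the tested members, Mcam was the gene whose KO minus WT difference changed sign between regions. In atrium it was 0.77 at probe 1 and 0.90 at probe 2. In ventricle it was -2.01 and -1.75, and in aorta -1.35 and -1.29, with 1 sample per genotype and region. In a fit of genotype by atrium, whose spread came from the C2C12 pair alone and which was added after the design was written, the term was 2.44 for probe 1 (adjusted p = 0.193) and 2.42 for probe 2 (adjusted p = 0.201). None of 23894 probes was called there by limma, and 3589 had an unadjusted p under 0.05.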

How the results depend on the processing

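Anpep and Pdgfra probe 2 stayed called between KO and WT under every alternative that gave a value for them, but each passed the filter through 1 group, so this is no independent support. Normexp gave them smaller differences (3.77 and -1.52), as it did for Angpt1 (1.86 and 1.30 at probes 1 and 2). The 4 member probes called higher in KO became 2 with probes above background on every array and 1 with each slide as a block. The 5 called lower became 2 with 1 probe per gene, 2 with no filter on dim probes, and 1 with either form of the slide block, of which the form with slides 1 and 3 as 1 block was chosen after seeing the data. Over all probes the calls fell likewise, to 439 higher and 301 lower with each slide as a block and to 704 higher and 557 lower with slides 1 and 3 as 1, against 3008 higher and 3578 lower without a block. Leaving out 1 sample gave 3 to 4 higher and 1 to 4 lower. KO with C2C12 gained 1 lower probe (Pdgfrb) with every array as its own sample, normexp, median scaling or the deposited values, and leaving out 1 sample gave 0 to 1. WT with C2C12 had 4 higher with every array as its own sample and 1 with 1 probe per gene, and with probes above background on every array it had 1 higher and 2 lower. The values that changed sign had not been called. In KO with C2C12 they were Cspg4 probe 1 (0.02 with normexp or median scaling, -0.13 to 0.12 leaving out 1 sample), Cspg4 probe 2 (-0.01 to 0.20 leaving out 1 sample, -0.02 with the slide block, -0.04 within slide 1), Anpep (-0.25 to 0.20 leaving out 1 sample), Angpt1 probe 2 (0.01 with the slide block, 0.07 within slide 1), Mcam probe 1 (-1.24 to 0.08 leaving out 1 sample), Mcam probe 2 (-1.10 to 0.13), Gjc1 probe 1 (0.05 with normexp, 0.04 with median scaling, 0.00 with the deposited values, -0.07 to 0.08 leaving out 1 sample) and Gjc1 probe 2 (-0.11 to 0.05). In WT with C2C12 they were Cd248 probes 1 and 2 (-0.03 and -0.06 with either slide block or within slide 2, and -0.03 to 0.61 and -0.06 to 0.71 leaving out 1 sample). The cause was not tested. No member was called between regions under any alternative, and region as a block, which pairs each KO sample with the WT sample of its region, changed no KO with WT call (Pdgfrb 1.30, adjusted p = 0.0321). The labels carry no replicate numbers. Probes not above background on at least 3 fitted arrays had no value in some of these fits.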
